A study of Mus musculus with 33 samples.

Results

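The keratin, claudin and cadherin genes were taken as every mouse gene on the array whose symbol is Krt, Cldn or Cdh followed by a number and at most 1 letter. The rule found 85 such genes among the 16593 named genes of the platform: 47 keratins, 19 claudins and 19 cadherins. A probe of 38 of them (21 keratins, 10 claudins and 7 cadherins) was detected on at least 3 of the 30 arrays, and these 38 were tested among 10614 genes in all. The other 47 were not tested, and the probes of 40 of those were detected on 0 arrays. The untested genes were Cdh5, Cdh6, Cdh7, Cdh8, Cdh12, Cdh16, Cdh17, Cdh19, Cdh20, Cdh22, Cdh24, Cdh26, Cldn2, Cldn8, Cldn13, Cldn14, Cldn16, Cldn17, Cldn18, Cldn19, Cldn23, Krt1, Krt2, Krt4, Krt5, Krt6a, Krt6b, Krt9, Krt13, Krt24, Krt25, Krt26, Krt27, Krt31, Krt34, Krt35, Krt39, Krt40, Krt71, Krt72, Krt77, Krt79, Krt84, Krt86, Krt87, Krt88 and Krt90. They include Cdh5, the cadherin of endothelial junctions, and Krt5, the usual basal-layer partner of Krt14.

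Total RNA was measured on Illumina bead arrays in 11 groups of 3 arrays. OKMS6, a single partly reprogrammed line made from virally transduced mouse embryonic fibroblasts and labelled as carrying viral Sox2, was sampled with RepSox for 10, 24 or 48 h and without RepSox at the same times. Mouse embryonic fibroblasts (MEF) were sampled after 1 week of RepSox and without it, and the remaining groups were the mouse embryonic stem cell lines R1 and V6.5 and an induced pluripotent (iPS) line derived with RepSox in place of viral Sox2. RepSox is a small-molecule inhibitor of the TGF-beta type I receptor kinase. Per the labels' protocols the cells grew in embryonic stem cell medium with or without irradiated fibroblast feeders. Nothing used here says which groups had feeders or serum. Nor do the labels call the 3 replicates of a group separate cultures, and the p-values may therefore rest on technical spread alone.

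Keratins pair as a type I and a type II chain and build the intermediate filaments of epithelial cells. Krt8, Krt18 and Krt19 are the keratins of simple epithelia and of the first epithelium of the embryo, and Krt14, Krt16 and Krt17 are keratins of stratified epithelia and their appendages. Claudins are membrane proteins that form the strands of tight junctions. Cadherins hold cells together through calcium-dependent contacts: Cdh1 (E-cadherin) joins epithelial and embryonic stem cells, Cdh2 (N-cadherin) and Cdh11 (OB-cadherin) join mesenchymal cells, and Cdh13 (T-cadherin) lacks a cytoplasmic tail and sits in the membrane by a lipid anchor.

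Levels are given as log2 of the background-corrected, quantile-normalized intensity plus 16, and a probe counted as detected where its detection p was under 0.05. Where a group had a gene detected on 0 arrays, the fold is a lower bound against the lowest signal detected on those arrays and is written as at least that fold. Tests were limma's moderated tests over the 27 arrays of 9 groups, with Benjamini-Hochberg adjustment over all 10614 genes and a threshold of 0.05. Changes carry ± their standard error (SE), with n = 3 arrays a group unless stated.

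Of the probes on the platform, 43.8% to 52% were detected on each of the 27 arrays in the fit, and arrays of 1 group correlated at 0.979 to 0.997. The 3 V6.5 arrays stood apart: 31.4% and 28.7% of probes were detected on replicates 1 and 3 against 47.3% on replicate 2, and they correlated at 0.783 to 0.928. V6.5 was therefore described array by array with no test. The scanner table and the authors' second table give the names of the 48 h arrays numbered 3, with and without RepSox, the other way round, and the scanner table's names were used here. Without these 2 arrays, 12 of the 13 calls at 48 h described here stood, with no change of direction, and under the second table's names 0 genes of any kind passed at 48 h by limma, while 447 had an unadjusted p under 0.05. The defining markers of the labelled cells were present in their groups: all 8 fibroblast markers tested were detected on all 3 arrays with RepSox and all 3 without it in MEF, and all 10 pluripotency markers tested were detected on all 3 R1 arrays. In the 6 OKMS6 groups 3 to 6 of those 10 were detected on all 3 arrays, and Dppa4, Esrrb and Dnmt3l on none. Fibroblast markers were detected outside MEF too: 6 of the 8 on all 3 R1 arrays, 5 on all 3 V6.5 arrays and 4 on all 3 arrays of each OKMS6 group. The 8 summed to 1110 to 1340 in R1 and 13100 to 14200 in untreated MEF.

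**Figure D1:**
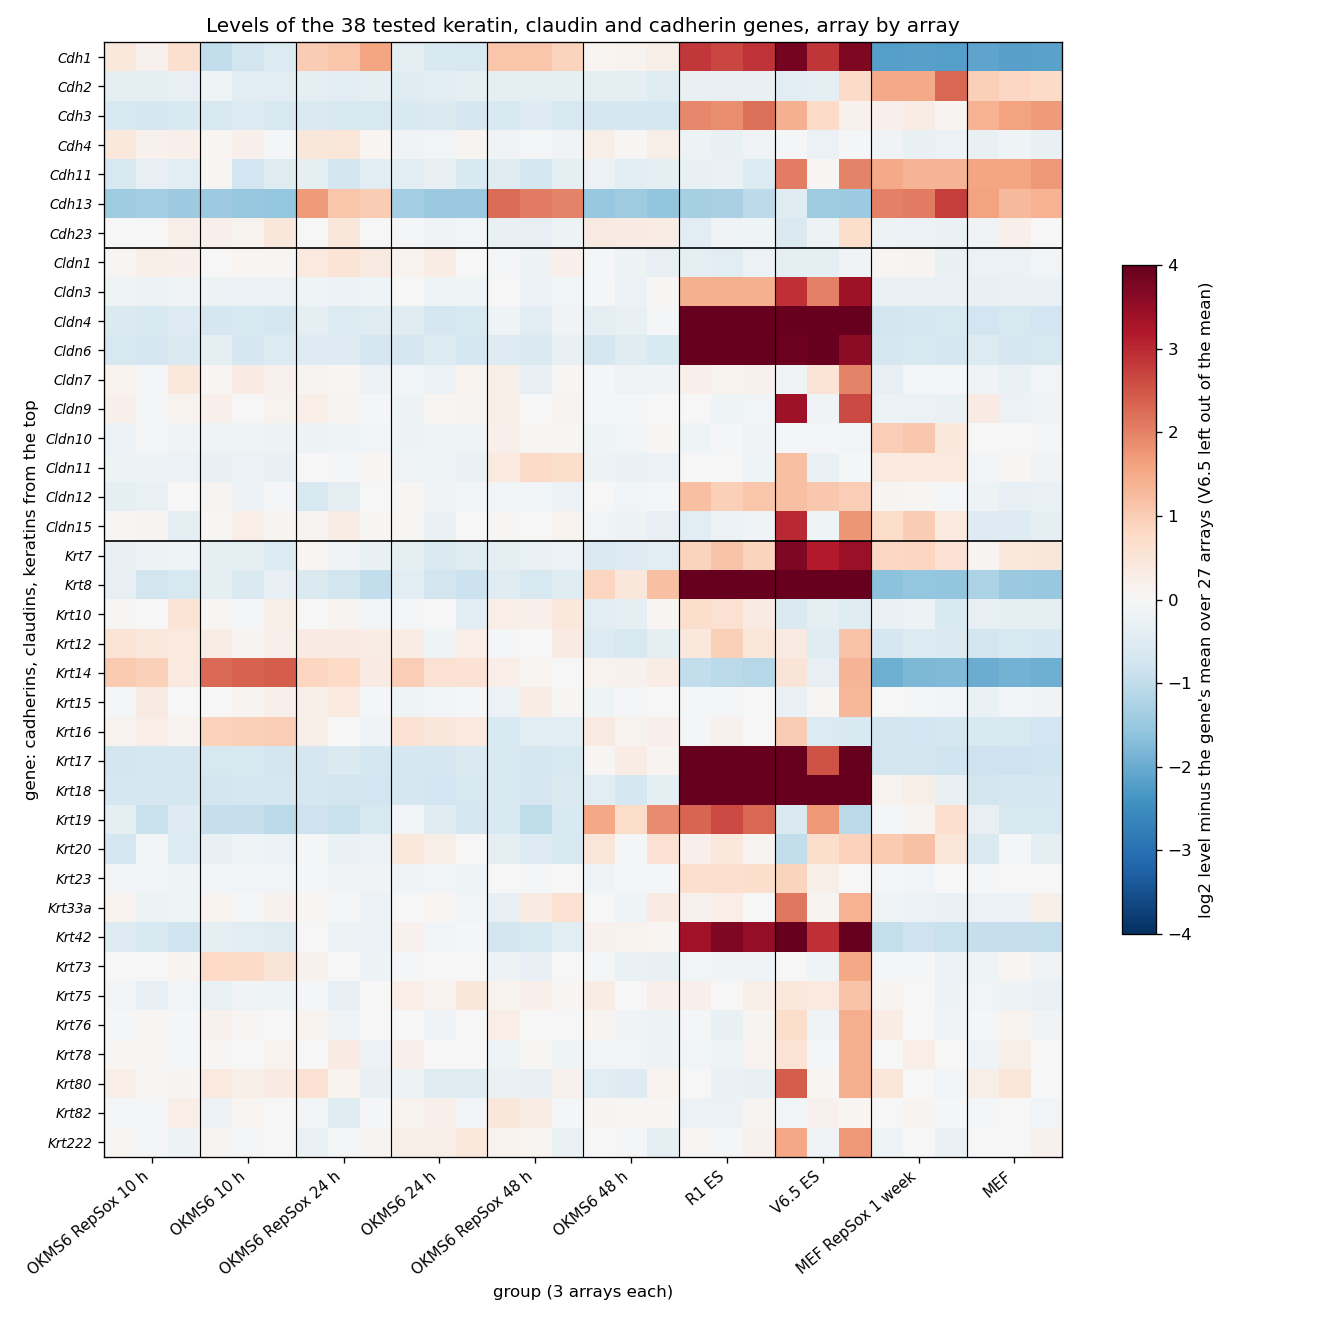
Heat map of the 38 tested genes (rows: cadherins, claudins and keratins from the top) on 30 arrays (columns, 3 a group), coloured by log2 level minus the gene's own mean over 27 arrays, with colours ending at 4 above or below. Krt8, Krt17, Krt18, Krt42, Cldn4 and Cldn6 are dark red on the 3 R1 arrays and near or below their mean on every OKMS6 and MEF array, except Krt8 in untreated OKMS6 at 48 h.

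How far the genes separate embryonic stem cells, the partly reprogrammed line and fibroblasts was read from 3 comparisons that share arrays. In R1 against MEF, 25 of the 38 genes (65.8%) passed, 20 higher and 5 lower, beside 70.1% of all genes (35.9% higher and 34.3% lower). By family, 13 keratins were higher and 1 lower, 5 claudins were higher and 0 lower, and 2 cadherins were higher and 4 lower. In untreated OKMS6 (the 9 arrays of 3 times) against R1, 22 of 38 (57.9%) passed, 6 higher and 16 lower, beside 65.3% of all genes (34.1% higher and 31.2% lower). In untreated OKMS6 against MEF, 21 of 38 (55.3%) passed, 14 higher and 7 lower, beside 71.7% of all genes (38.8% higher and 32.8% lower). None of the 3 shares exceeded that of all genes. Scaling the arrays on their medians in place of quantiles shifted the median of all genes from -0.01 to 0.52 in R1 against MEF and from 0.05 to 0.42 in OKMS6 against MEF. In R1 against MEF it called 20 of the genes higher and 6 lower, and in OKMS6 against MEF 17 higher and 8 lower. Mean scanner intensity was 94.9 to 102 on the untreated MEF arrays, 374 to 429 on the R1 arrays and 194 to 327 on the untreated OKMS6 arrays. Its part in these differences, and in the bounds against MEF, was not tested.

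Krt8, Krt18, Krt19 and Krt7 were higher in R1 than in MEF. Krt8 read 11.59, 11.48 and 11.57 in R1, against 5.16, 4.94 and 4.91 in MEF. The R1 arrays lay 6.54 ± 0.14 above those of MEF (adjusted p = 3.0e-23). In untreated OKMS6 the 9 arrays ran from 5.55 to 7.61 with a median of 6.05, a change of -5.22 ± 0.12 against R1 (adjusted p = 3.9e-23) and of 1.32 ± 0.12 against MEF (adjusted p = 1.3e-10). The R1, OKMS6 and MEF arrays did not overlap. Krt18, the type I partner of Krt8, read 9.73, 9.76 and 9.45 in R1. It was detected on 0 of 9 untreated OKMS6 arrays and on 0 of 3 MEF arrays, so R1 was at least 28.7-fold above MEF and OKMS6 at least 28.6-fold below R1 (adjusted p = 5.9e-24 and 8.2e-26). Krt8 was thus detected on all 9 untreated OKMS6 arrays while its partner's probe was detected on none of them. Krt19, a type I keratin of simple epithelia, read 7.70, 8.01 and 7.66 in R1 and was detected on 1 of 3 MEF arrays, where the values were 5.03, 4.74 and 4.73. R1 lay 2.96 ± 0.22 above MEF (adjusted p = 2.9e-12). Krt7, a type II simple epithelial keratin, read 6.18, 6.43 and 6.17 in R1, against 5.40, 5.70 and 5.72 in MEF, a difference of 0.65 ± 0.11 (adjusted p = 7.9e-06). Krt7 was lower in untreated OKMS6 than in either, by a change of -1.45 ± 0.09 against R1 and -0.80 ± 0.09 against MEF.

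Among the other keratins, Krt17 read 9.77, 9.89 and 9.77 in R1 and was detected on 0 of 3 MEF arrays, a difference of at least 32-fold (adjusted p = 2.8e-27). It was detected on 3 of the 9 untreated OKMS6 arrays, all at 48 h. Krt42 read 8.75, 9.10 and 8.89 in R1, at least 17.2-fold above MEF, where it was detected on 0 arrays (adjusted p = 4.4e-23). OKMS6 held it on 8 of 9 arrays, between 4.90 and 5.56. Krt14 had the opposite order between R1 and the partly reprogrammed line. It read 6.36 to 8.64 over the 9 untreated OKMS6 arrays, with a median of 6.84, against 5.25, 5.17 and 5.09 in R1. OKMS6 was thus 2.15 ± 0.12 above R1 (adjusted p = 6.1e-15), and it was at least 5.72-fold above MEF, where Krt14 was detected on 0 arrays (adjusted p = 2.1e-18). In V6.5, which was not tested, Krt14 read 6.73, 5.91 and 7.58 on replicates 1, 2 and 3, all above R1. Replicates 1 and 3, where fewer probes were detected, lay within the OKMS6 range. Krt16, a stratified-epithelium keratin induced in wounded skin, had an OKMS6 change of 0.53 ± 0.08 against R1, with ranges that overlapped, and was at least 1.76-fold above MEF. Krt10, a type I keratin of differentiating skin layers, was detected on all 30 arrays and was 0.91 ± 0.15 higher in R1 than in MEF. Krt20 was 0.57 ± 0.18 higher in R1 than in MEF. Krt12, Krt23 and Krt75 also passed as higher in R1 and were detected on 0 MEF arrays, with R1 at least 1.76-fold, 1.22-fold and 1.15-fold above MEF. Krt23 was detected on the 3 R1 arrays and no others, so it entered the test only through R1. Krt80 was the keratin that was lower in R1, at -0.44 ± 0.19. Krt75 rested on the probe used, since its other probe differed by -0.38.

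Claudins of embryonic stem cells divided sharply between lines. Cldn6, a claudin of embryonic epithelia and pluripotent cells, read 9.63, 9.70 and 9.68 in R1. Neither the 9 untreated OKMS6 arrays nor the 3 MEF arrays detected it, at least 29.1-fold below R1 in each (adjusted p = 1.1e-27 for OKMS6 and 1.0e-25 for MEF). Cldn4, an epithelial claudin, read 9.21, 9.19 and 9.44 in R1 and was detected on 0 MEF arrays, at least 22.3-fold lower there (adjusted p = 1.8e-24). Of 9 untreated OKMS6 arrays 2 detected Cldn4, both at 48 h, and the highest of the 9 was 4.99. Cldn3, an epithelial claudin, read 5.93, 5.97 and 5.91 in R1 and was detected on 0 of the other 12 arrays, at least 2.19-fold lower in OKMS6 and in MEF. Of the 30 arrays, only those of R1 and V6.5 detected Cldn6 or Cldn3, so these genes entered the test only through embryonic stem cells. Cldn12 was detected on all 30 arrays and was 1.36 ± 0.12 higher in R1 than in MEF (adjusted p = 2.5e-10). OKMS6 and MEF differed in Cldn12 by 0.21 ± 0.10, which missed the threshold (adjusted p = 0.067). Cldn7 read 5.18, 5.12 and 5.15 in R1, against 4.83, 4.69 and 4.84 in MEF with 1 of 3 arrays detected, a difference of 0.36 ± 0.14 (adjusted p = 0.019).

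The cadherins split R1 and fibroblasts in both directions. Cdh1 read 9.39, 9.26 and 9.48 in R1 and was detected on 0 of 3 MEF arrays, at least 23.8-fold lower in MEF (adjusted p = 1.7e-21). Untreated OKMS6 held Cdh1 between the other cell types, from 5.60 to 6.82 with a median of 6.02, and 9 of 9 arrays detected it. That was a change of -3.18 ± 0.11 against R1 and at least 2.62-fold above MEF. Cdh3 (P-cadherin) read 6.87, 6.81 and 7.15 in R1, against 6.34, 6.56 and 6.65 in MEF. It was detected on 0 of 9 untreated OKMS6 arrays, at least 4.41-fold below R1 and 3.27-fold below MEF. The fibroblast cadherins ran the other way. Cdh11 read 5.02, 5.04 and 4.75 in R1, against 6.89, 6.89 and 7.05 in MEF, a change of -2.01 ± 0.15, and untreated OKMS6 changed by -2.03 ± 0.12 against MEF. Cdh13 read 4.52, 4.55 and 4.82 in R1, detected on 1 of 3 arrays, against 7.47, 7.14 and 7.23 in MEF, a change of -2.65 ± 0.16. It was detected on 0 of 9 untreated OKMS6 arrays, at least 5.56-fold below MEF. Cdh2 was detected on 0 R1 arrays and 0 untreated OKMS6 arrays, against 5.70, 5.56 and 5.51 in MEF, at least 1.86-fold lower in R1 and 1.72-fold lower in OKMS6.

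**Figure D2:**
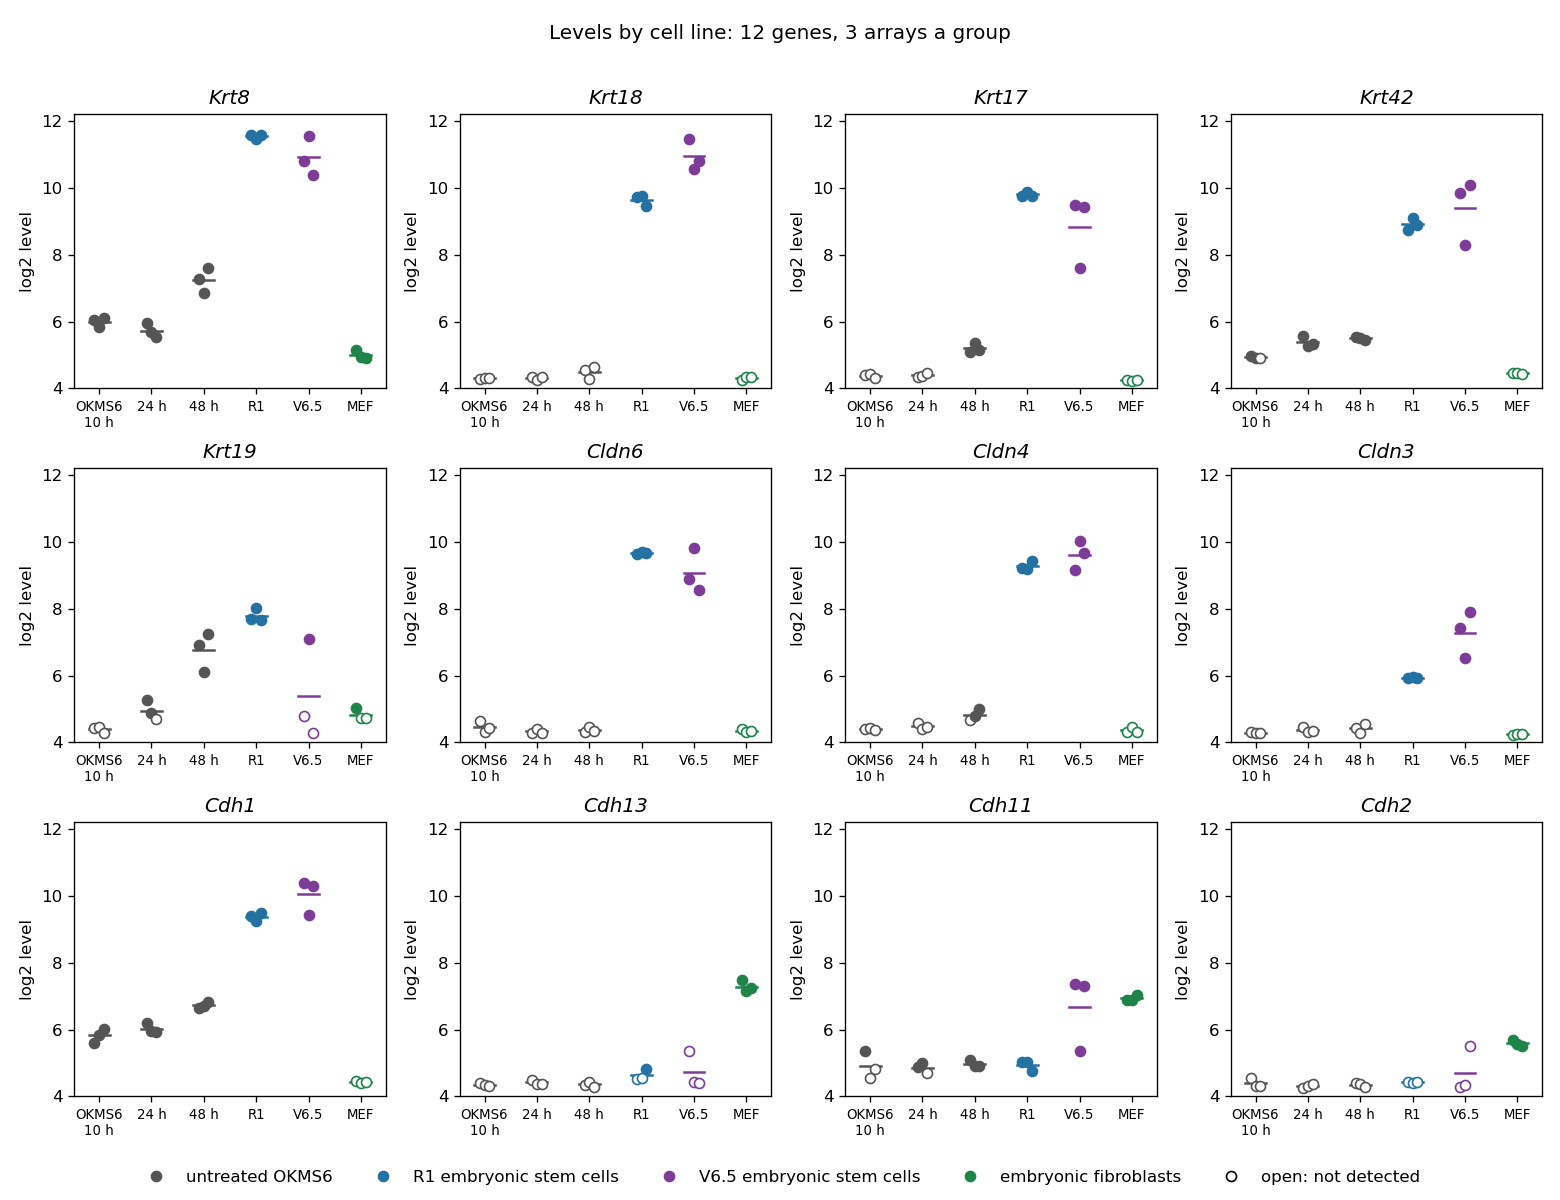
Log2 level of 12 genes in untreated OKMS6 at 10, 24 and 48 h, in R1, V6.5 and MEF; each circle is an array, open where the probe was not detected, and bars are means of 3 arrays. Krt18, Cldn6 and Cldn3 are open circles throughout OKMS6 and MEF and filled in R1 and V6.5, and Cdh13, Cdh11 and Cdh2 are highest in MEF apart from 2 V6.5 arrays for Cdh11.

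The promoters of the genes with the largest R1 differences over MEF are shown because these genes set R1 apart from MEF most, which is how they were chosen. Of the 7 largest R1 differences (Krt8, Krt17, Krt18, Cldn6, Cdh1, Cldn4 and Krt42), 5 had an entry in the RefSeq promoter table (build GRCm38.p6), which held 56 of the 85 genes and 24 of the 38 tested. Each line gives the 250 bases before the annotated start, 5′ to 3′ on the gene's strand. Capitals mark CAGGTG on either strand (the E-box bound by the Snai and Zeb repressors) and GCCNNNGGC (a Tfap2 motif, the same on both strands). These motifs do not overlap in the windows shown.
Krt8 (chr15:102004343-102004592, minus strand): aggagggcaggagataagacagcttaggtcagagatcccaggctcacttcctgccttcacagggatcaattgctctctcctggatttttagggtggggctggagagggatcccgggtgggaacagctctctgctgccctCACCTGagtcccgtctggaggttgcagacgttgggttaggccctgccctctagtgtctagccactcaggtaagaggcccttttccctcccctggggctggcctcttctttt
Krt18 (chr15:102027966-102028215, plus strand): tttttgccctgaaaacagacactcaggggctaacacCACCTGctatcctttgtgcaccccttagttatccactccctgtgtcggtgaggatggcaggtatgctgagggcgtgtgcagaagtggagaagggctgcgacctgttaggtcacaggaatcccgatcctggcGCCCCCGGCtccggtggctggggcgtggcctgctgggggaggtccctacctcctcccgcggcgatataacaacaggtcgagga
Krt42 (chr11:100269952-100270201, minus strand): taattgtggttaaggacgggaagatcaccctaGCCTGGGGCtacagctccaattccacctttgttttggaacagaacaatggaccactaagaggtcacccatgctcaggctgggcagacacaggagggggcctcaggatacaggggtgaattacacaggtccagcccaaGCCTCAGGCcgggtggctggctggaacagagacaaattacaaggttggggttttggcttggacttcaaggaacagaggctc
Cldn4 (chr5:134946935-134947184, minus strand): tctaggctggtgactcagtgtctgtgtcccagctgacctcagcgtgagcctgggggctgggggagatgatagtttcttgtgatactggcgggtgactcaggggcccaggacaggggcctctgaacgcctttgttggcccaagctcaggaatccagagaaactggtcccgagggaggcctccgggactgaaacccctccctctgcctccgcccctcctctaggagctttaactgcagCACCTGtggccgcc
Cldn6 (chr17:23679115-23679364, plus strand): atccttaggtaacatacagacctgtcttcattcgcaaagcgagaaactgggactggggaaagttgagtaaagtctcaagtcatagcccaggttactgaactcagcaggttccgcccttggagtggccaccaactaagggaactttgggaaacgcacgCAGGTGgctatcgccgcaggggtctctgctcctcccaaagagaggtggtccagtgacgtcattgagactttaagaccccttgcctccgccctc
The windows of Krt8, Krt18, Cldn4 and Cldn6 each held 1 match to the E-box, which 17.2% of 32817 promoter windows of that length held. The Tfap2 motif occurred 1 time in the Krt18 window and 2 times in the Krt42 window, and 13.7% of all windows held it. These matches describe the letters of the windows only.

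V6.5 and the iPS line held most of the genes that were high in R1. On V6.5 replicates 1, 2 and 3, Krt8 read 10.81, 11.55 and 10.38, Krt18 read 11.46, 10.55 and 10.82, and Cldn6 read 8.88, 9.82 and 8.55. Krt17 read 9.48, 7.59 and 9.44 and Krt7 read 9.02, 8.45 and 8.75. Krt7, Krt8 and Krt18 were thus detected on all 3 V6.5 arrays, while Krt19 was detected on replicate 2 alone, at 7.11. Cdh1 read 10.40, 9.43 and 10.31. Cdh11 read 7.35 and 7.31 on the dim replicates 1 and 3 and 5.37 on replicate 2, and the dim arrays likewise gave 8.24 and 7.50 for Cldn9, which was not detected on replicate 2. The iPS arrays had a platform of their own, which cannot be told apart from the cell type, and no test was made. Of 77 of the genes named there, 22 were detected on all 3 iPS arrays and 50 on 0. Detected on all 3 were Cdh1 (9.60, 9.82 and 9.73), Krt8 (12.72, 12.88 and 13.15), Krt18 (12.39, 12.12 and 12.13), Krt7 (mean 11.13 ± 0.12, SD, n = 3), Krt19 (8.57, 8.52 and 8.87), Krt17 (7.84, 7.91 and 7.75), Cldn4 (11.44, 12.15 and 11.46), Cldn3 (8.29, 8.27 and 8.08) and Cldn7 (7.69, 7.73 and 7.40). The iPS arrays were normalized alone on their own platform, so none of these levels can be set beside those of R1 or V6.5. Krt7 and Cldn7 were moreover read there by other probes than on the 30-array platform. The fibroblast cadherins Cdh2 (5.72, 5.55 and 5.51) and Cdh13 (5.84, 5.71 and 5.85) were detected on all 3 iPS arrays as well. All 10 fibroblast markers and all 9 pluripotency markers on that platform were detected on all 3 iPS arrays, as were 6 of 8 trophectoderm markers (a list that includes Krt7), 4 of 8 endothelial, 3 of 8 keratinocyte and squamous, 3 of 6 smooth muscle and 1 of 6 adipocyte markers. Elf5 and Hand1 of the trophectoderm list were detected on none. The part of other cells in these levels was not tested. Cldn6, Krt42 and Krt73 are not named on that platform.

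Over the 9 group means of the tested platform, the genes most like Cdh1 were Tbc1d13 (Pearson r = 0.984), Matr3 (r = 0.980) and Esrp1 (r = 0.978), an epithelial splicing regulator. The 9 means share arrays, normalization and the wide gap between R1 and MEF, so these correlations are a description with no p. Esrp1 averaged 6.97 in OKMS6 with RepSox at 24 h and 6.21 without it, and 8.41 in R1 and 4.27 in MEF.

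The effect of RepSox on OKMS6 was read at each time against untreated OKMS6 of the same time. At 10 h, 4 of the 38 genes (10.5%) passed, 1 higher and 3 lower, beside 12.6% of all genes (7.27% higher and 5.35% lower). At 24 h, 8 of 38 (21.1%) passed, 5 higher and 3 lower, beside 24% of all genes (13% higher and 11% lower). At 48 h, 13 of 38 (34.2%) passed, 5 higher and 8 lower, beside 32.7% of all genes (15.8% higher and 16.9% lower). These shares were near those of all genes at each time. The size of the RepSox change differed between the 3 times for 11 of 38 genes (28.9%), beside 26.1% of all genes, and untreated OKMS6 itself differed between times for 16 of 38 (42.1%), beside 45% of all genes. Mean scanner intensity was 147 to 201 on the RepSox arrays at 24 h and 217 to 238 on the untreated ones, and its part in the 24 h changes was not tested. With median scaling the median of all genes moved from 0.00 to -0.18 at 24 h, and 3 of the genes were then higher and 7 lower. In these bulk RNA samples, fewer cells of a type and less RNA per cell cannot be told apart.

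Cdh1 was higher with RepSox at each time. At 10 h it read 6.99, 6.74 and 7.21 with RepSox, against 5.60, 5.84 and 6.02 without, a change of 1.16 ± 0.13 (2.23-fold, adjusted p = 1.0e-06). At 24 h it read 7.58, 7.68 and 8.16, against 6.19, 5.97 and 5.93, a change of 1.78 ± 0.13 (3.43-fold, adjusted p = 1.4e-10). At 48 h it read 7.69, 7.68 and 7.45, against 6.66, 6.71 and 6.82, a change of 0.88 ± 0.13 (1.84-fold, adjusted p = 8.3e-06). The groups did not overlap at any of the 3 times, and the highest RepSox array, at 8.16, was below the lowest R1 array, at 9.26. Untreated cells themselves differed between times in Cdh1, by 0.70 from 24 h to 48 h (moderated F test over 3 times, adjusted p = 1.1e-05). The RepSox change differed between the times as well (moderated F test, adjusted p = 0.0021).

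Cdh13 changed most at the later times. It was detected on 0 of 3 arrays with RepSox and 0 of 3 without at 10 h. At 24 h it read 7.55, 6.97 and 6.86 with RepSox and was detected on 0 untreated arrays, at least 5.02-fold higher (fitted change 2.71 ± 0.16, adjusted p = 1.1e-12). At 48 h it read 8.10, 7.95 and 7.84 with RepSox and was again detected on 0 untreated arrays, at least 9.43-fold higher (fitted change 3.60 ± 0.16, adjusted p = 1.3e-15). The 3 RepSox arrays at 48 h lay above the 3 untreated MEF arrays of the same gene, whose highest was 7.47, a comparison that was not tested. The other Cdh13 probe gave changes of 0.49 at 10 h, 1.80 at 24 h and 2.09 at 48 h (adjusted p over all probes 5.9e-04, 9.1e-14 and 1.8e-15). The 2 probes therefore differed at 10 h, where only the dimmer probe passed.

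Cdh2 and Cdh3 were detected on 0 OKMS6 arrays at any time, with or without RepSox. Cdh11 was detected on 2 of 3 arrays with RepSox at each time and 1 to 3 without, and its changes of -0.07, -0.08 and -0.17 at 10, 24 and 48 h passed at none of these times. Cdh4 (R-cadherin) read 5.08, 5.12 and 4.70 with RepSox at 24 h, against 4.51, 4.52 and 4.73 without, a change of 0.38 ± 0.11 (adjusted p = 0.010) between groups that overlapped. At 48 h the Cdh4 change was -0.29 ± 0.11 (adjusted p = 0.041), a call that was lost under 5 of 13 alternatives and when any 1 of 5 of the 6 arrays was left out. Cdh23, a cadherin of the hair cell's tip links, was detected on 0 RepSox arrays at 48 h and all 3 untreated ones, at least 1.28-fold lower (adjusted p = 2.0e-04). Its other probes changed by -0.62 and -0.08 at 48 h (adjusted p over all probes 2.3e-06 and 0.72).

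Of the simple epithelial keratins, Krt8, Krt19 and Krt20 were lower with RepSox at 48 h. Krt8 read 5.92, 5.77 and 5.94 with RepSox at 48 h, against 7.27, 6.86 and 7.61 without, a change of -1.37 ± 0.14 (adjusted p = 3.2e-08), and the groups did not overlap. At 10 h it read 6.10, 5.69 and 5.77, against 6.05, 5.84 and 6.09, and at 24 h 5.83, 5.67 and 5.44, against 5.95, 5.69 and 5.55, with changes of -0.14 and -0.09 that did not pass (adjusted p = 0.67 and 0.74). In untreated cells Krt8 was 1.51 higher at 48 h than at 24 h (moderated F test over 3 times, adjusted p = 8.7e-09). The 3 RepSox arrays at 48 h lay within the range of the earlier times, 5.44 to 6.10, and the 3 untreated ones above it.

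Krt19 followed the same order. It read 4.75, 4.36 and 4.77 with RepSox at 48 h, detected on 1 of 3 arrays, against 6.93, 6.09 and 7.25 without, a change of -2.13 ± 0.22 (adjusted p = 1.8e-08). At 10 h 2 of 3 RepSox arrays and 0 untreated ones detected it, and the change of 0.39 ± 0.22 did not pass (adjusted p = 0.30). At 24 h it was detected on 0 RepSox arrays and 2 of 3 untreated ones, and the change of -0.38 ± 0.22 did not pass either (adjusted p = 0.23). Untreated Krt19 was 0.56 higher at 24 h than at 10 h and 1.81 higher at 48 h than at 24 h (adjusted p = 6.5e-09 for the moderated F test over times). Krt20, a simple epithelial keratin of gut and urothelium, read 5.09, 4.95 and 4.82 with RepSox at 48 h, against 5.93, 5.39 and 6.06, a change of -0.84 ± 0.18 (adjusted p = 6.1e-04). Krt18 was not detected on any OKMS6 array, with or without RepSox. Krt7 read 5.34, 5.12 and 4.99 with RepSox at 24 h, against 4.93, 4.71 and 4.78, a change of 0.34 ± 0.11 (adjusted p = 0.024), and its changes of 0.19 at 10 h and 0.22 at 48 h did not pass. The 24 h call on Krt7 was lost with median scaling and when any 1 of 4 arrays was left out.

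Krt17 and Krt42, which were high in R1, were also lower with RepSox at 48 h. Krt17 was detected on 0 of 3 RepSox arrays at 48 h, against 5.10, 5.35 and 5.15 without RepSox, at least 1.33-fold lower (fitted change -0.79 ± 0.08, adjusted p = 7.8e-09). Neither group had it detected at 10 h or 24 h. Krt42 read 4.65, 4.77 and 4.93 with RepSox at 48 h, detected on 2 of 3 arrays, against 5.54, 5.52 and 5.46, a change of -0.73 ± 0.10 (adjusted p = 2.4e-06). Of the other genes that were high in R1, Cldn6 and Cldn3 were not detected on any OKMS6 array, and Cldn4 was detected on 2 of 3 arrays with RepSox and 2 of 3 without at 48 h, with a change of 0.02 ± 0.10 (adjusted p = 0.91).

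Of the keratins of stratified epithelia, Krt14 passed as lower with RepSox at 10 h and missed the threshold at 24 h and 48 h. It read 7.26, 7.17 and 6.63 with RepSox at 10 h, against 8.51, 8.59 and 8.64 without, a change of -1.56 ± 0.14 (adjusted p = 3.0e-08), with groups well apart. At 24 h it read 7.10, 7.01 and 6.56, against 7.23, 6.84 and 6.81, and at 48 h all 6 arrays lay between 6.24 and 6.53. Those groups overlapped and the changes of -0.07 and -0.08 did not pass (adjusted p = 0.80 and 0.75). Untreated Krt14 itself changed by -1.62 between 10 h and 24 h and by -0.53 between 24 h and 48 h (moderated F test over times, adjusted p = 1.6e-11). The RepSox change differed between the times (moderated F test, adjusted p = 1.9e-06).

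Krt16 was lower with RepSox at all 3 times. At 10 h it read 5.21, 5.32 and 5.20 with RepSox, against 5.99 to 6.04 without, a change of -0.77 ± 0.10 (adjusted p = 3.4e-06). At 24 h it read 5.29, 5.10 and 4.92, against 5.66, 5.53 and 5.47, a change of -0.45 ± 0.10 (adjusted p = 8.9e-04). At 48 h it was detected on 0 RepSox arrays, against 5.41, 5.21 and 5.26, at least 1.42-fold lower (adjusted p = 1.4e-06). The groups did not overlap at any of these times. Krt73, a keratin of the hair root sheath, was detected on 0 RepSox arrays at 10 h, against 5.47, 5.42 and 5.16 without RepSox, at least 1.43-fold lower (adjusted p = 1.6e-04). Those 3 untreated arrays were the only ones of 30 to detect Krt73, so it entered the test only through that group.

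Markers of keratinocytes and squamous cells moved in both directions at 10 h, when 12.6% of all genes passed. Of 8 listed, 5 were tested, 1 rose (Trp63) and 2 fell: Krt14 itself and Sfn, a cell-cycle inhibitor of squamous epithelium, with a change of -1.88 ± 0.15. The summed level of the 5 markers was 224 to 282 with RepSox at 10 h and 569 to 596 without, a sum that includes Krt14. The 3 markers that are not keratins summed to 99.4 to 105 with RepSox and 168 to 179 without. Trp63, the transcription factor of basal epithelial cells, was higher with RepSox at 10, 24 and 48 h, at least 1.46-fold, 1.77-fold and 1.98-fold, being detected on 0 untreated arrays. Krt15 was detected on 0 untreated OKMS6 arrays, and the untested Krt5 was detected on 0 of all 30 arrays. The part of such cells in the keratin changes was not tested. Endothelial markers (4 tested of 8) summed to 364 to 414 with RepSox at 48 h and 914 to 1070 without, with Pecam1 down by a change of -3.76 and Esam by a change of -1.69, and their part in the 48 h keratin changes was not tested.

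The remaining calls were small. At 24 h Krt80 read 5.61, 5.13 and 4.70 with RepSox, against 4.78, 4.51 and 4.50 without, with groups that overlapped and a change of 0.55 ± 0.19 (adjusted p = 0.040). Krt75 read 4.77, 4.52 and 4.88 with RepSox at 24 h, against 5.13, 5.01 and 5.31, a change of -0.43 ± 0.11 (adjusted p = 0.0051), while its other probe changed by -0.05. Krt222 changed by -0.36 ± 0.12 at 24 h. Of the 8 calls at 24 h, 3 remained without replicate 2 of the RepSox group (Cdh1, Cdh13 and Krt16), while 10 genes passed without its replicate 3. At 48 h Krt10 was 0.55 ± 0.15 higher (adjusted p = 0.0061), a call lost with median scaling, and Krt12, a keratin of the corneal epithelium, was detected on 0 untreated arrays and at least 1.30-fold higher. Untreated Krt12 itself changed by -0.66 between 24 h and 48 h (moderated F test over times, adjusted p = 6.5e-05). With RepSox it averaged 5.33 at 24 h and 5.10 at 48 h.

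Of the 10 claudins tested, 0 passed at 10 h and 0 at 24 h by limma, beside 12.6% and 24% of all genes. At those times 0 and 3 of the claudins had an unadjusted p under 0.05. At 48 h, when 32.7% of all genes passed, 1 claudin did, Cldn11, the claudin of myelin and of the Sertoli cell barrier. It read 4.96, 5.33 and 5.26 with RepSox at 48 h and was detected on 0 untreated arrays, at least 1.38-fold higher (fitted change 0.86 ± 0.09, adjusted p = 2.4e-08). At 10 h and 24 h it was detected on 0 arrays with or without RepSox.

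**Figure D3:**
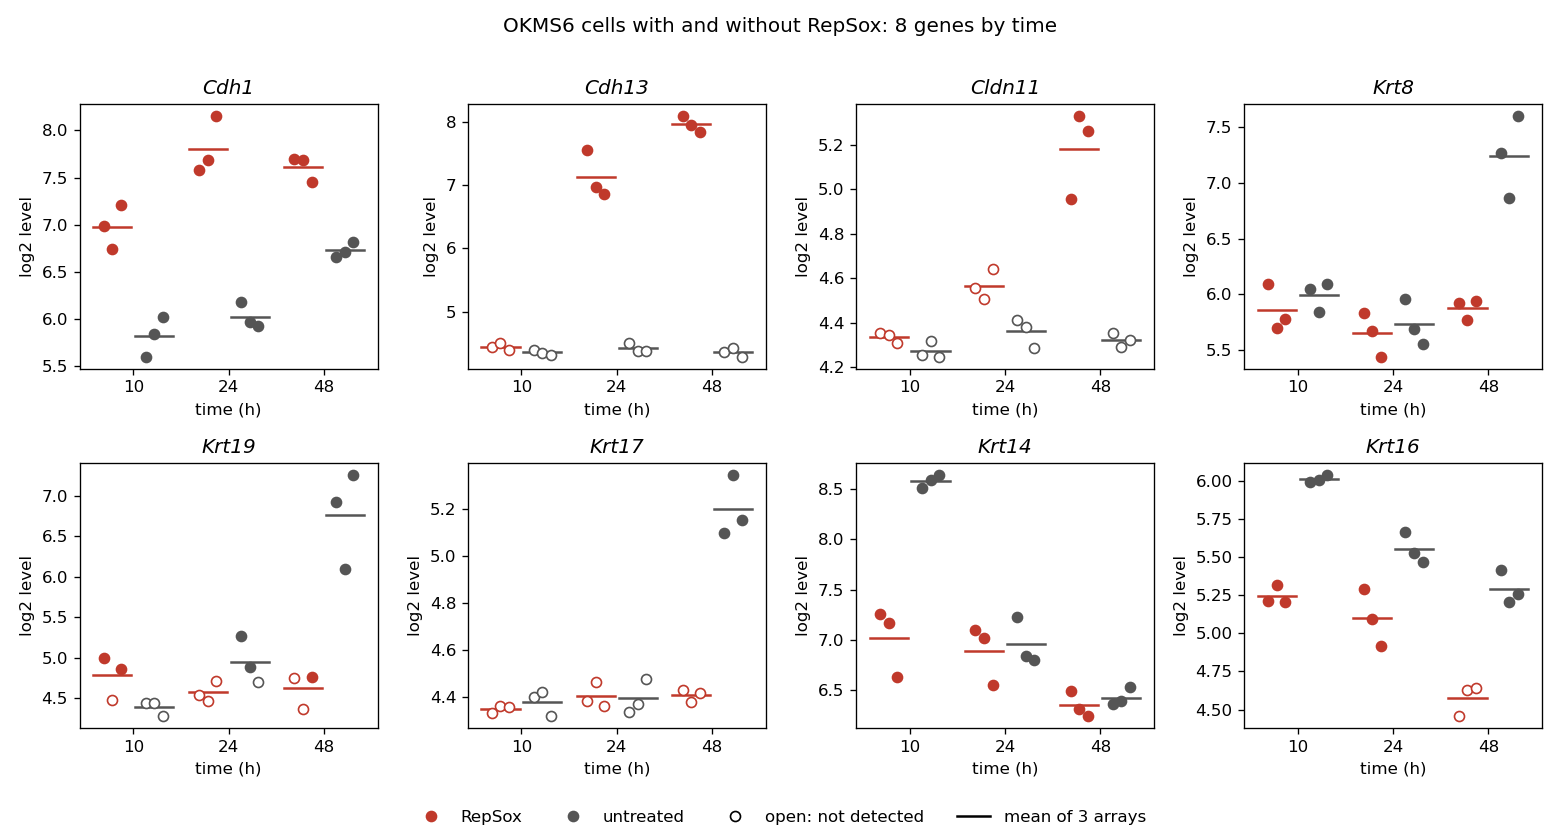
Log2 level of 8 genes in OKMS6 at 10, 24 and 48 h, with RepSox (red, left) and untreated (grey, right); each circle is an array, open where not detected, and bars are means of 3 arrays; the log2 axes differ between panels. Cdh1 sits higher with RepSox at each time and Cdh13 at 24 and 48 h, with open circles for Cdh13 in both groups at 10 h. Krt8, Krt19 and Krt17 stand out in the untreated cells at 48 h, and Krt14 is set apart at 10 h.

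The junction partners and regulators around these genes were read from lists. Beside the counts below, 12.6% of all genes passed at 10 h (7.27% higher and 5.35% lower). At 24 h 24% passed (13% higher and 11% lower), and at 48 h 32.7% (15.8% higher and 16.9% lower). Desmosomal genes (6 tested of 14 listed) were 2 higher and 1 lower at 10 h, 1 higher and 3 lower at 24 h, and 0 higher and 4 lower at 48 h. At 48 h the 4 that fell were Ppl (-1.20), which links keratin to the membrane plaque, Pkp3 (-0.97) and Pkp1 (-0.47), plakophilins of the plaque, and Dsg2 (-0.91), a desmosomal cadherin. The list's median change was -0.69 at 48 h, beside 0.00 over all genes. Tight junction partners (10 tested of 15) included 3 that fell at 48 h: F11r (-0.74), an adhesion receptor of the junction, Tjp1 (-0.63), its scaffold, and Marveld3 (-0.33). Their median change was 0.01. Of the adherens junction partners (7 tested of 11), 0 passed at 10 h and 0 at 48 h by limma, where 3 and 0 had an unadjusted p under 0.05. At 24 h Ctnna1 (0.29), the catenin that links cadherins to actin, and Nectin2 (0.45), a nectin, rose.

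Among regulators, the mesenchymal repressors of epithelial genes (7 tested of 8) had 0 calls at 10 h and 0 at 24 h by limma, where 1 and 2 had an unadjusted p under 0.05. At 48 h Snai1 (0.39) and Zeb1 (0.37) rose and Snai3 (-0.36) fell. Of 13 epithelial regulators tested of 16 listed, 6 rose and 1 fell at 10 h, 5 rose and 3 fell at 24 h, and 3 rose and 5 fell at 48 h. Tfap2c, a transcription factor of trophoblast and of surface ectoderm, rose by 2.00 ± 0.10 at 10 h, 2.51 ± 0.10 at 24 h and 2.45 ± 0.10 at 48 h. Klf5, a factor of proliferating epithelia, rose by 0.93 at 10 h and 1.17 at 24 h. Esrp2, an epithelial splicing regulator, changed by -0.61 at 10 h and was detected on 0 RepSox arrays at 48 h, at least 1.62-fold lower. Grhl1, a grainyhead factor of epithelial barrier genes, rose by 0.75 at 48 h, and Tfap2a, a factor of surface ectoderm and neural crest, rose by 0.76 at 24 h.

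In fibroblasts the question was which of these genes 1 week of RepSox moved. Of the 38 genes, 10 (26.3%) passed, 9 higher and 1 lower, beside 28.3% of all genes (12.8% higher and 15.5% lower). By family, 4 keratins, 3 claudins and 2 cadherins were higher and 1 cadherin was lower. Median scaling gave 8 higher and 1 lower. The untreated arrays are the same as in the comparisons with R1 and OKMS6 above. The RepSox fibroblasts also carried adipocyte markers: all 5 tested were higher, and their summed level was 9270 to 13900 with RepSox and 356 to 404 without. Smooth muscle markers summed to 19100 to 20600 with RepSox and 15700 to 16700 without, with 3 of 5 higher. The part of either in the changes below was not tested.

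The cadherins of fibroblasts moved in opposite directions. Cdh2 read 6.24, 6.24 and 7.04 with RepSox, against 5.70, 5.56 and 5.51 without, a change of 0.92 ± 0.13 (1.89-fold, adjusted p = 3.9e-06). Its other 3 probes rose by 0.73, 0.82 and 0.78. Cdh3 read 5.15, 5.25 and 5.08, against 6.34, 6.56 and 6.65, a change of -1.36 ± 0.09 (adjusted p = 2.7e-12), with groups more than 1 log2 unit apart. The other Cdh3 probes changed by -0.50 and -0.15, the last with an adjusted p over all probes of 0.16. Cdh13 read 7.88, 7.94 and 8.62, against 7.47, 7.14 and 7.23, a change of 0.86 ± 0.16 (adjusted p = 1.1e-04), and its other probe rose by 0.79. Cdh11 read 6.82, 6.68 and 6.68, against 6.89, 6.89 and 7.05, and its change of -0.22 ± 0.15 did not pass (adjusted p = 0.33). Cdh1 was detected on 0 of 3 RepSox arrays and 0 of 3 untreated arrays.

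Among keratins, Krt20 read 6.52, 6.64 and 5.93 with RepSox, against 4.87, 5.40 and 5.11, a change of 1.23 ± 0.18 (adjusted p = 4.5e-06). Krt19 read 5.28, 5.48 and 6.04, against 5.03, 4.74 and 4.73, a change of 0.77 ± 0.22 (adjusted p = 0.0084) that was lost with median scaling and without replicate 3 of the RepSox group. Krt18 read 5.14, 5.25 and 4.73 and was detected on 0 untreated arrays, at least 1.18-fold higher (adjusted p = 6.8e-06). Krt7 read 6.09, 6.15 and 5.84, against 5.40, 5.70 and 5.72, a change of 0.42 ± 0.11 (adjusted p = 0.0044). Krt8, the partner of Krt18, read 4.78, 4.88 and 4.85, against 5.16, 4.94 and 4.91, and its change of -0.17 ± 0.14 did not pass (adjusted p = 0.47).

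The claudins that rose in fibroblasts were at or under detection without RepSox. Cldn15, a pore-forming claudin of the intestine, read 5.67, 5.94 and 5.33 and was detected on 0 untreated arrays, at least 1.79-fold higher (adjusted p = 1.0e-07). Cldn10, an ion-pore claudin, read 5.45, 5.52 and 4.89 and was likewise detected on 0 untreated arrays, at least 1.40-fold higher (adjusted p = 6.0e-07). Of the 30 arrays of the shared platform, only those of the RepSox fibroblasts detected Cldn10, so it entered the test only through that group. Another probe of Cldn10 was detected on all 3 iPS arrays, on their own platform. Cldn11 read 4.96, 4.94 and 4.94, at least 1.10-fold above the untreated arrays, where it was detected on 0 (adjusted p = 2.3e-04). It too entered the test only through groups with RepSox, these fibroblasts and OKMS6 at 48 h. Cldn3, Cldn4 and Cldn6 were detected on 0 fibroblast arrays of either group. For all 10 genes that passed, the RepSox and untreated arrays did not overlap. The same held for genes that did not pass, Cdh11, Cdh23, Cldn9, Cldn12 and Krt17 among them, so it adds no support to the calls.

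**Figure D4:**
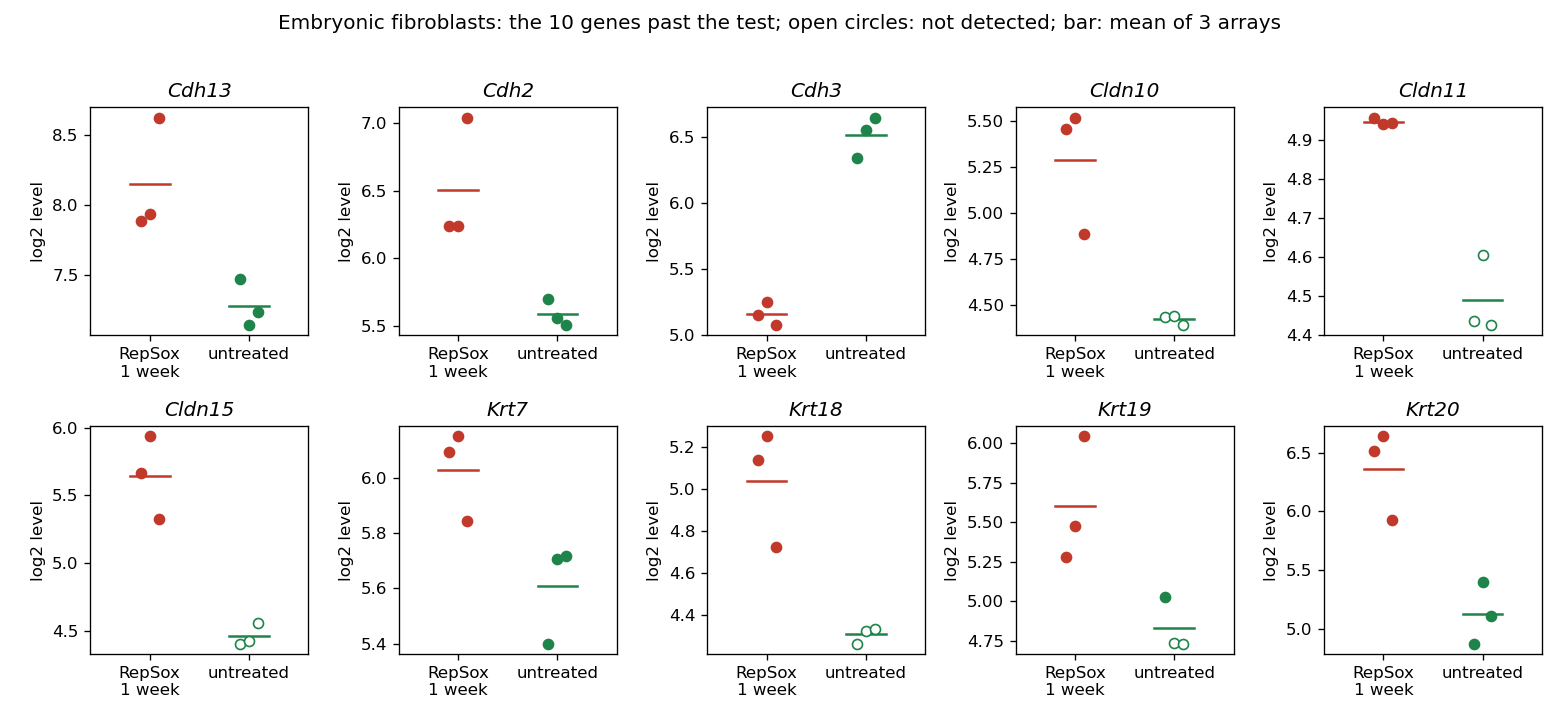
Log2 level of the 10 genes that passed in fibroblasts, with RepSox for 1 week (red, left) and untreated (green, right); each circle is an array, open where not detected, and bars are means of 3 arrays; the log2 axes differ between panels. The groups do not overlap in any of the 10 panels, nor do they for some genes that did not pass, and Cdh3 is the gene that is lower with RepSox.

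Among the listed partners in fibroblasts, Ctnnd1 (p120 catenin), which binds the cadherin tail, rose by 1.30 ± 0.13 and Nectin3 changed by -0.63. F11r was detected on 0 RepSox arrays and all 3 untreated ones, at least 1.53-fold lower, and Cgnl1, a tight junction plaque protein, changed by -0.50. Of the 7 mesenchymal repressors tested, 3 rose and 3 fell, beside 12.8% of all genes higher and 15.5% lower. Among them were Zeb2 (1.13), Twist1 (0.80), Zeb1 (0.75) and Tcf4 (-0.80). Of the epithelial regulators, Tfap2a (2.40 ± 0.14) rose, Grhl1 was at least 1.32-fold higher, and Gata3, a factor of trophoblast and luminal epithelia, changed by -1.17. Ppl was detected on 2 of 3 RepSox arrays and 0 untreated ones, at least 1.03-fold higher.

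The RepSox change in fibroblasts at 1 week was set against that in OKMS6 at 48 h, which used separate arrays for each cell type. The 2 changes differed for 15 of the 38 genes (39.5%), with 10 differences above 0 and 5 below, beside 33.3% of all genes (16.4% above 0 and 16.9% below). The cell type and the duration of treatment differ together and cannot be told apart. For 5 of the 15 (Cdh1, Krt12, Krt16, Krt17 and Krt42) no fibroblast array detected the gene, and for 4 (Cdh2, Cdh3, Cldn10 and Krt18) no OKMS6 array at 48 h did, so those differences set a change against background. Only Krt8, Krt19 and Krt20 were detected in all 4 groups, and Krt19 on just 1 of 3 arrays in untreated fibroblasts and in RepSox OKMS6. Krt19 was 0.77 higher with RepSox in fibroblasts and changed by -2.13 in OKMS6, a difference of 2.90 ± 0.31 (adjusted p = 3.1e-08). Krt20 was 1.23 higher in fibroblasts and changed by -0.84 in OKMS6, a difference of 2.07 ± 0.25 (adjusted p = 3.6e-07). These 2 were the genes that passed in opposite directions in the cell types, though the Krt19 call in fibroblasts was kept under only 9 of 12 alternatives. Krt8 changed by -0.17 in fibroblasts and -1.37 in OKMS6, a difference of 1.20 ± 0.20 (adjusted p = 4.2e-05). Cdh13 was higher with RepSox in each cell type, 1.82-fold in fibroblasts (a log2 change of 0.86) and at least 9.43-fold in OKMS6. It was detected on 0 untreated OKMS6 arrays at 48 h, so the fitted log2 difference of -2.74 ± 0.22 rests partly on background. Cldn11 was detected on 0 untreated arrays of either cell type, so its rises are bounds, at least 1.10-fold in fibroblasts and at least 1.38-fold in OKMS6, and have no order.

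**Figure D5:**
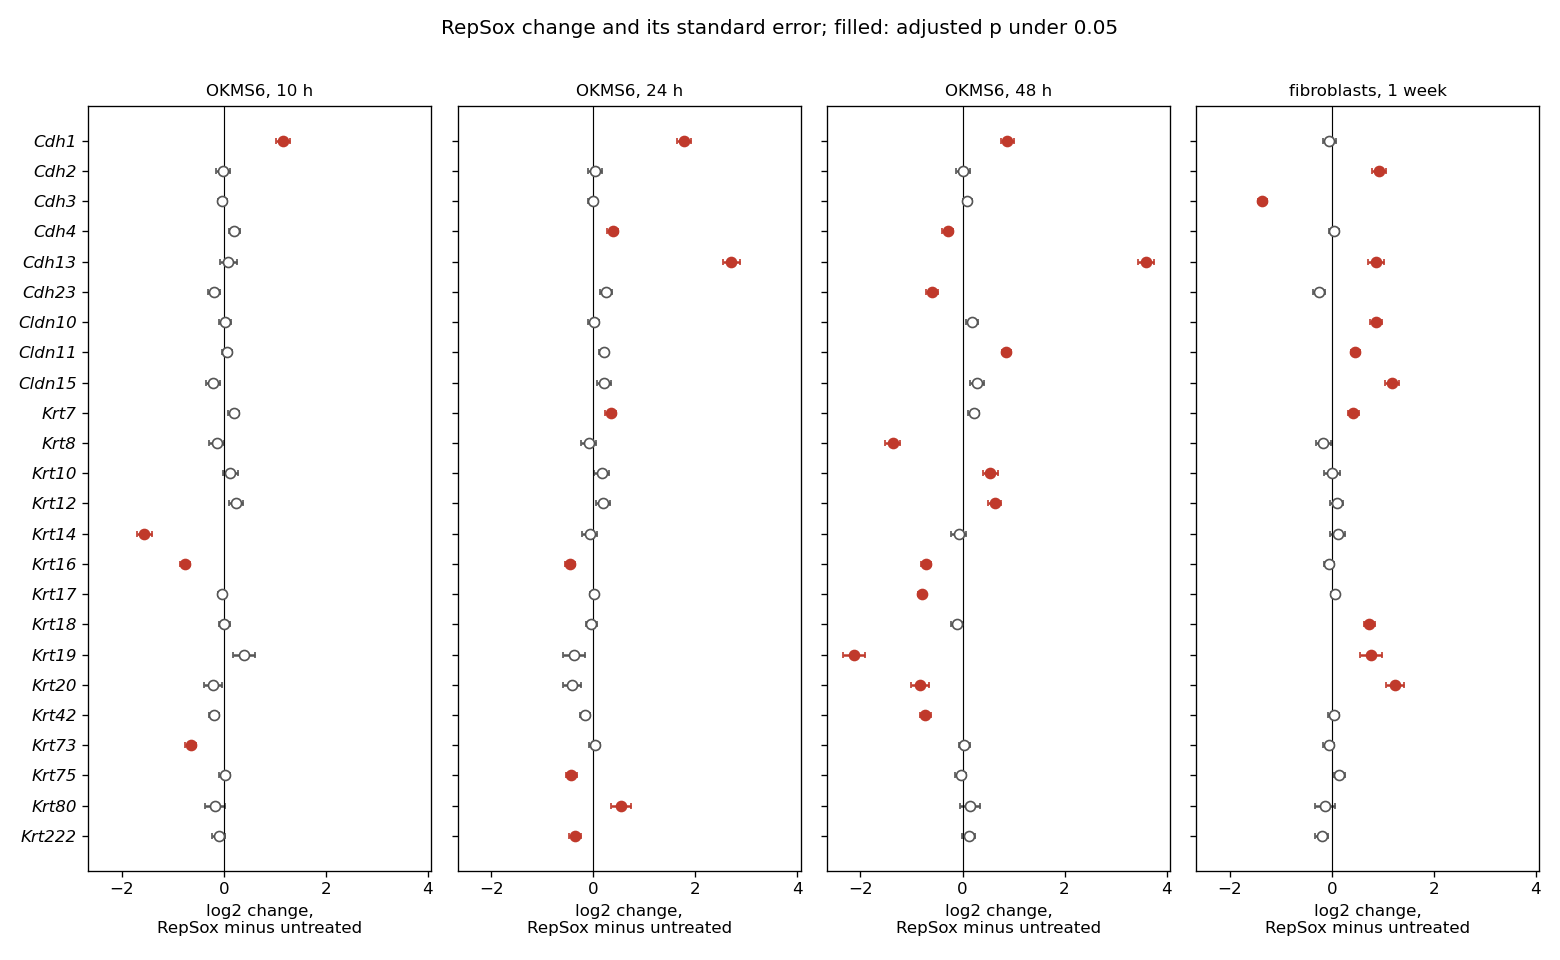
RepSox change (log2, RepSox minus untreated) of the 24 genes that passed in at least 1 of the 4 RepSox comparisons; points are fitted changes, bars their standard errors from 3 arrays a group, and filled red points have an adjusted p under 0.05. Cdh1 is to the right of 0 in the 3 OKMS6 panels, Krt8 and Krt19 are to the left at 48 h, and Krt19 and Krt20 lie to the right in fibroblasts.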

How the data were processed

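Total RNA of 33 samples (11 groups of 3, grouped by the labels) was measured on Illumina bead arrays of 2 platforms. Per the file headers, the authors deposited a signal intensity and a detection p-value per probe for each array, not normalized, and BeadStudio is named in the submitters' processing notes with no version. A second table of processed values, on a scale not given in the sources used here, served as an alternative. In limma 3.58.1 (R 4.3.3), neqc corrected the background from the detection p-values, quantile-normalized the 30 arrays of the shared platform, added 16 and took log2. The filter kept 15635 of 25697 probes, those that 3 or more of the 30 arrays detected at p under 0.05, and each gene was represented by the probe with the highest mean, giving 10614 genes. A linear model over 27 arrays in 9 groups, with 18 residual degrees of freedom, was followed by empirical Bayes moderation and Benjamini-Hochberg adjustment; V6.5 was normalized with the others and left out of the fit. The iPS arrays were normalized alone. The model was tested on simulated data.

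The genes, the gene lists and the rule for named genes were chosen with earlier results of these data known. Named by array were the canonical genes of the 3 families and the 6 largest changes of each RepSox comparison. The lists held junction partners, epithelial regulators, mesenchymal repressors and cell type markers, and 3 list symbols were updated through RefSeq. Same-numbered arrays deviated together at 48 h (r = 0.225, 0.101 and 0.338), and r was above 0 in each fibroblast pair as well (0.0563, 0.117 and 0.21). They did not in every pair at 10 h (r = -0.00525, 0.0171 and 0.0169) or 24 h (r = -0.213, 0.164 and -0.317). The labels name no shared culture. The number of arrays limits the precision. Alternatives were median scaling, no detection filter, other probes, V6.5 in the fit, array weights, only the groups compared, the second table, a replicate block and leaving out each array. Promoters came from RefSeq (GRCm38.p6).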

Additional observations from a re-analysis of the deposited data

Results flagged for a closer look

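The RepSox change differed between fibroblasts at 1 week and OKMS6 at 48 h for 15 of the 38 genes, by a test of the difference itself. The differences (log2, fibroblasts minus OKMS6) were 2.90 for Krt19, 2.07 for Krt20, 1.20 for Krt8, 0.91 for Cdh2, 0.89 for Cldn15, 0.85 for Krt17, 0.84 for Krt18, 0.76 for Krt42, 0.68 for Cldn10 and 0.66 for Krt16. They were -0.40 for Cldn11, -0.54 for Krt12, -0.93 for Cdh1, -1.46 for Cdh3 and -2.74 for Cdh13. Cdh1, Krt12, Krt16, Krt17 and Krt42 were detected on 0 fibroblast arrays and Cdh2, Cdh3, Cldn10 and Krt18 on 0 OKMS6 arrays at 48 h. Cldn11 was detected on 0 untreated arrays of either, Cdh13 on 0 untreated OKMS6 arrays at 48 h and Cldn15 on 0 untreated fibroblast arrays. Krt19 was detected on 1 of 3 untreated fibroblast arrays and 1 of 3 RepSox OKMS6 arrays at 48 h. The differences for these genes therefore rest partly on background values and their sizes are not exact. Cell type and duration of treatment cannot be told apart in these differences.

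In OKMS6 the RepSox change differed between 10, 24 and 48 h for 11 genes by a moderated F test. The adjusted p was 2.9e-11 for Cdh13, 1.9e-06 for Krt14, 2.4e-06 for Krt19, 3.1e-06 for Krt17, 2.7e-05 for Krt8, 5.3e-05 for Cldn11, 0.0012 for Cdh23, 0.0014 for Krt73, 0.0021 for Cdh1, 0.0040 for Cdh4 and 0.0049 for Krt42. Both groups were at background for Cdh13 at 10 h, for Krt17 and Cldn11 at 10 and 24 h, and for Krt73 at 24 and 48 h. Untreated cells also differed between times for Krt14, Krt19, Krt17, Krt8, Krt73, Cdh1, Cdh23 and Krt42, and the part of that in these differences was not tested.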

How the results depend on the processing

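Of 35 named RepSox calls, 9 kept their call under every alternative and every left-out array, and 0 values changed sign. The second deposited table, which exchanges the 48 h arrays numbered 3, gave 0 genes and 0 of the 38 at 48 h by limma, with 447 and 4 at an unadjusted p under 0.05. It gave 613 genes at 10 h, 1603 genes and 5 of the 38 at 24 h, 1206 and 6 for fibroblasts against OKMS6, 199 and 1 for the change between times, and 10 of the 38 between untreated times. Without both of those arrays 12 of the 38 passed at 48 h, and 13 did in the second table. With V6.5 in the fit 412 genes and 2 of the 38 passed at 10 h, 974 and 3 at 24 h, 1695 genes at 48 h, 1608 genes in fibroblasts, 1699 and 9 for fibroblasts against OKMS6, 934 and 5 for the change between times, 2125 and 7 between untreated times, and 12 of the 38 for OKMS6 against MEF. Array weights gave 2782 genes at 10 h, 4904 and 17 at 24 h, and 5262 and 18 for the change between times. Fitting only the compared groups gave 1666 genes and 3 of the 38 at 24 h, no detection filter gave 7 of 85 at 10 h, and median scaling gave 1834 genes in fibroblasts. The causes were not tested.

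Of all genes called, the share that was higher under median scaling and under quantile scaling was 15.1% and 54.2% at 24 h, 35.5% and 48.4% at 48 h, 59.1% and 45.2% in fibroblasts, 75.7% and 54.2% for OKMS6 against MEF, 72.2% and 51.1% for R1 against MEF, and 68.1% and 49.2% for fibroblasts against OKMS6. The replicate block gave 4 of the 38 at 10 h, 9 at 24 h, 13 at 48 h and 10 in fibroblasts. Within the 48 h arrays alone, an alternative chosen after seeing the data, the block gave 12 and lost Cdh4.

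Leaving out 1 array gave 943 to 1225 genes and 4 of the 38 each time at 10 h, 1792 to 2908 and 3 to 10 at 24 h, 2937 to 3044 and 12 to 13 at 48 h, and 2509 to 3110 and 9 to 10 in fibroblasts. It gave 7131 to 7179 and 22 to 24 for R1 against MEF, 7183 to 7593 and 17 to 22 for OKMS6 against MEF, and 6433 to 6939 and 20 to 22 for OKMS6 against R1. For fibroblasts against OKMS6 the range was 3148 to 3553 and 14 to 16, for the change between times 2316 to 3363 and 11 to 15, and between untreated times 4159 to 4597 and 14 to 15. The lowest count at 24 h came without RepSox replicate 2 and the highest without RepSox replicate 3. Signals near background limit Krt17, Krt19, Cldn11 and most small changes.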
